A study of Mus musculus with 12 samples.

Results

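Replication fork direction and Okazaki fragment abundance were compared between epiblast-like cells (EpiLCs) lacking both KMT2C and KMT2D and EpiLCs of the control line, over the 19 autosomes of the mouse genome. Of the 12 OK-seq samples of the series, 4 belong to this comparison: 2 KMT2C/D dKO EpiLC samples and 2 control EpiLC samples, chosen by their genotype and state labels. The authors summed the 2 replicates of each condition, so 2 pooled tracks were compared, in 47085 windows of 50 kb, 4747 windows of 500 kb and 495 windows of 5 Mb. Both lines lack KMT2C, since the control is the KMT2C KO line, and KMT2D was removed in the dKO from a conditional allele by CreER, a Cre that 4-hydroxytamoxifen activates. Whether the control cells also received 4-hydroxytamoxifen is not given in the sources used here, so loss of KMT2D and exposure to the drug and active Cre cannot be told apart. The cells are mouse embryonic stem (ES) cells of mixed C57BL/6 and 129 background, differentiated for 63 h without LIF and 2i, and labelled with EdU for 2 min. A DNA assay holds no marker of the EpiLC state, so that label could not be checked here.

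KMT2C and KMT2D are large histone methyltransferases of the COMPASS family that place H3K4me1, the mark of enhancers, and act in complexes with WDR5, RBBP5, ASH2L, DPY30, NCOA6, PAXIP1, PAGR1A and KDM6A. OK-seq sequences Okazaki fragments, the short pieces from which the lagging strand is made, with their strand. Since the lagging strand of a fork is set by its direction of travel, the share of Crick reads among all reads of a window, C/(W+C), is read, by the usual convention of the assay, as the share of forks that move left to right. In that reading the Crick share climbs from left to right across sites where replication starts and declines where forks meet. The convention was not checked independently here, and the control Crick share also followed base composition (r = 0.702 with T minus A content over 500 kb windows, as a description). The share of all autosomal reads that falls in a window, here the read share, depends on how much nascent DNA was recovered there and on the copy number of the region, which cannot be told apart in these data.

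The EpiLC control track held 11407678 reads and the EpiLC dKO track 12962445, of which 11087588 and 12609142 were autosomal. A 500 kb window held a median of 2325 reads in the control and 2674 in the dKO, and the Crick share difference of such a window had a median half-width of 2.74 percentage points in its 95% interval. Because replicates were summed, no spread between replicates and no p-value can be given, and every interval here covers counting error only and compares the pooled libraries. The naive ES cell tracks, with 4409068 reads in the control and 3937871 in the dKO, share no reads with the EpiLC tracks and are given beside them. Values of EpiLCs with catalytically dead KMT2C/D (dCD) are also set beside the dKO, but both are measured against the same control reads. Per the study's methods, its catalytically dead cells are R1 cells of a 129 background, a different line, so line and mutation cannot be told apart in the dCD values.

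The genes targeted in these lines were examined first. Over the body of Kmt2c (chr5:25271798-25498783, minus strand), 1314 control and 1437 dKO reads gave a read share ratio of 0.962 (0.892 to 1.04). Over Kmt2d (chr15:98831669-98871204, minus strand), 305 control and 291 dKO reads gave a ratio of 0.839 (0.712 to 0.988). No 1 kb bin of Kmt2d lacked reads in either track, and in Kmt2c 3 bins lacked reads in the control and 2 in the dKO, none of them adjacent. The deleted exons are not given in the sources used here, so the genotype labels could not be checked with these reads. The Crick share over Kmt2c was 32.3% in the control and 31.7% in the dKO, and over Kmt2d 40.7% and 38.8%, below 50% in both genes and both tracks.

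Chromosome 3 was the one autosome whose read share differed by 2% or more. It held 6.58% of autosomal reads in the EpiLC control and 6.29% in the EpiLC dKO, a ratio of 0.956 (0.953 to 0.959). The other 18 autosomes had ratios from 0.993 (chromosome 2) to 1.01 (chromosome 14). By this rule 5.26% of autosomes were lower in the dKO and 0% higher, while the counting interval alone lay above 1 for 10 autosomes and below 1 for 4. In naive cells chromosome 3 held 6.61% of control reads and 6.27% of dKO reads, a ratio of 0.949 (0.944 to 0.954), so the same chromosome was lower in a separate pair of libraries of these lines. Its share was 6.20% in EpiLC dCD and 6.08% in naive dCD, below both controls. The deficit ran along the whole chromosome: 30 of its 32 windows of 5 Mb were below 1 (median 0.958, range 0.900 to 1.016), against 199 of the 463 windows of the other autosomes, or 43.0%, whose median was 1.004. In naive cells 31 of the 32 windows were below 1. With the trend of the read share ratio on GC content taken off, the chromosome 3 ratio was 0.968.

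**Figure D1:**
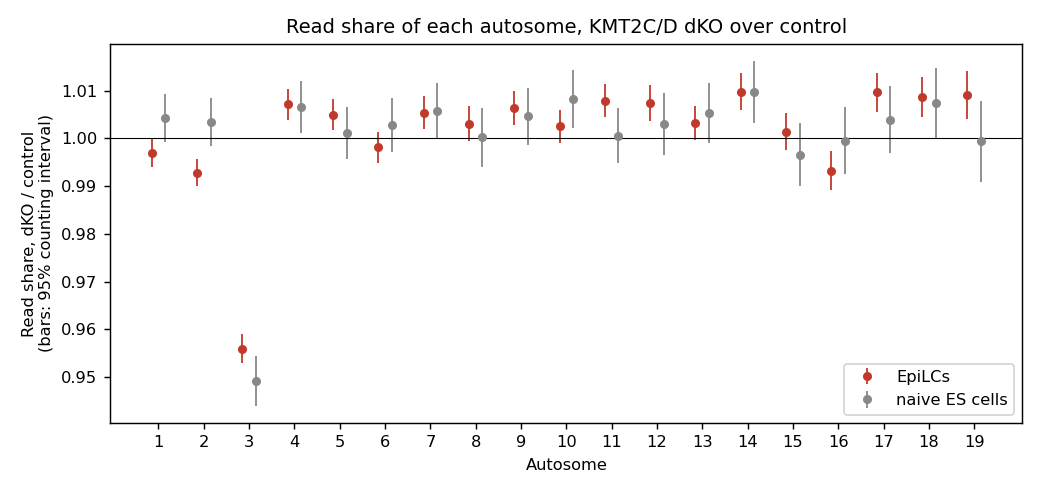
Read share of each autosome (x axis) in the KMT2C/D dKO divided by that in the control (y axis, linear, not starting at 0), for EpiLCs in red and naive ES cells in grey, with 95% counting intervals as bars. Chromosome 3 lies at 0.956 in EpiLCs and 0.949 in naive cells, and the other EpiLC points lie between 0.993 and 1.01.

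The balance of the strands over whole autosomes was alike in both tracks. The Crick share per autosome was 49.7% to 50.3% in the control and in the dKO, and the dKO minus control difference ranged from -0.14 to 0.19 percentage points. The counting interval of the difference held 0 for all 19 autosomes.

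Within chromosomes, the map of the Crick share was shared by both tracks, and its swings were larger in the dKO. Amplitude is used here for the SD of the Crick share over windows after the variance expected from counting is removed. At 50 kb it was 9.72 percentage points in the control and 10.6 in the dKO, a ratio of 1.095. At 500 kb it was 6.43 and 7.25 points, a ratio of 1.13, and at 5 Mb it was 1.59 and 1.76 points, a ratio of 1.104. The naive pair had the same order, with 8.02 points in the control and 9.001 in the dKO at 500 kb, a ratio of 1.12. EpiLC dCD had 8.60 points at 500 kb, so the EpiLC control had the smallest amplitude of the 3 EpiLC tracks at each scale. With counting error removed, the Crick shares of control and dKO correlated across windows with 0.965 at 50 kb, 0.976 at 500 kb and 0.986 at 5 Mb, as a description of windows that share libraries. The slope of the dKO on the control Crick share was 1.06, 1.101 and 1.09 at these scales. The SD of the dKO minus control difference beyond counting error, which includes the part due to the slope, was 2.83 points at 50 kb, 1.70 at 500 kb and 0.322 at 5 Mb.

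The larger swings showed as more windows with a Crick share far from 50%. What underlies the larger amplitude of the dKO track was not tested. A Crick share of at least 60% or at most 40% was found in 659 of the 4747 windows of 500 kb in the control (13.9%) and in 871 in the dKO (18.3%). Of these, 591 were polarised the same way in both tracks and 0 were polarised in opposite directions. A direction could be called against 50% by the Wilson interval in 3538 control and 3643 dKO windows. The dKO track was deeper, with a median of 2674 reads a window against 2325, which narrows its intervals. Of the 3151 windows called in both, 3131 had the same direction and 20 had turned. The dKO was farther from 50% than the control in 2932 windows, or 61.8% of all. The amplitude ratio at 500 kb was 1.07 in the GC quartile with the lowest GC content (35.0% to 38.9% GC) and 1.14 in each of the other quartiles. By gene content it went from 1.11 in windows without a protein-coding gene start to 1.15 in windows with 10 or more.

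**Figure D2:**
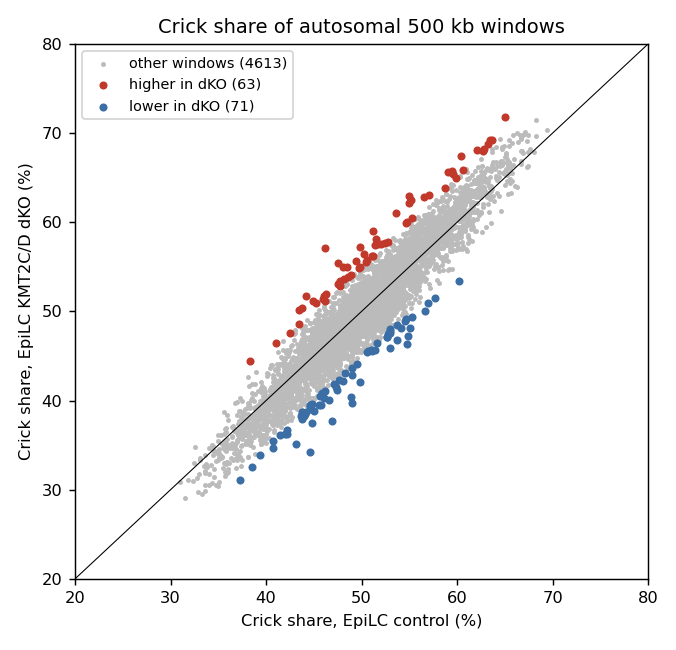
Crick share of each autosomal 500 kb window in the EpiLC control (x axis, percent) and the EpiLC KMT2C/D dKO (y axis, percent), 1 point a window, with the line of equal values. Windows called higher (red, 63) or lower (blue, 71) in the dKO lie along the whole range of control values, and the grey cloud is steeper than the line, with a slope of 1.101.

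Windows with a changed Crick share were sought at each scale by a minimum difference and a counting interval without 0. At 500 kb, with a minimum of 5 percentage points, 63 windows were higher in the dKO (1.33% of windows) and 71 were lower (1.5%). With the dKO scaled to the amplitude of the control, 69 windows were called, of which 61 were among these 134. Of the 134, 104 lay farther from 50% in the dKO than in the control (77.6%, beside 61.8% of all windows) and 30 lay nearer. Only 14 of the 134 had turned across 50% by the Wilson intervals. At 50 kb, with 15 points, 160 were higher (0.34%) and 165 lower (0.35%). At 5 Mb, with 2 points, 0 were higher (0%) and 0 lower (0%). The 134 windows called at 500 kb formed 132 separate stretches, and the longest held 2 windows. A stretch ends where a window falls short of the minimum, so its length does not give the extent of a difference. Of the 325 windows called at 50 kb, 62 lay in a 500 kb window called the same way and 2 in one called the opposite way. The called 500 kb windows had a median GC content of 40.1% against 41.7% of all windows, a median of 1 protein-coding gene start against 2, and no gene start in 30.6% against 24.4%. They were also shallower, with a median of 2052 control reads against 2325.

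The same windows were then measured in naive cells, whose reads played no part in the choice. The 63 windows higher in the EpiLC dKO had a mean naive difference of 2.67 points (counting SE 0.326), and 49 of them were above 0. The 71 windows lower in the EpiLC dKO had a mean naive difference of -1.94 points (counting SE 0.308), and 49 of them were below 0. All windows averaged -0.012 points in naive cells. On average the naive differences thus had the EpiLC sign and less than the EpiLC size, which averaged 6.01 and -6.02 points in the chosen windows and is enlarged there by the choice itself. The amplitude at 500 kb was larger in the dKO in both states, with ratios of 1.13 in EpiLCs and 1.12 in naive cells. The naive values were not scaled for it, so its part in the shared sign was not tested. At 50 kb the naive means were 2.41 (counting SE 0.682) and -1.82 points (counting SE 0.692) for the higher and lower windows. Of the 160 higher windows of 50 kb, 91 were above 0 in naive cells, and of the 165 lower ones 97 were below 0. Over all 500 kb windows the EpiLC and naive differences correlated with 0.248, as a description across windows.

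Among called 500 kb windows that hold a protein-coding gene start, 35 regions were higher and 54 lower. The largest increase was on chromosome 3 (chr3:14500001-15000000, mm10), in a window with the carbonic anhydrase genes Car1, Car13 and Car3, whose enzymes interconvert CO2 and bicarbonate. Its Crick share was 46.2% of 2293 reads in the control and 57.1% of 2365 reads in the dKO, a difference of 10.9 points (8.08 to 13.8), from below to above 50%. In naive cells the window stood at 53.4% and 55.2%, a difference of 1.76 points (-3.01 to 6.51), and in EpiLC dCD at 54.1%. The EpiLC difference lay in the middle and right of the window. In the 50 kb centred 125 kb right of the middle, the control had 27.4% Crick reads and the dKO 55.8%, a difference of 28.4 points (20.2 to 36.0), the highest of all 50 kb windows. From 75 kb left of the middle to 225 kb right of it, the control was between 27.4% and 54.6% and the dKO between 54.0% and 69.7%, and at 275 kb the control stood at 66.3% and the dKO at 60.6%.

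The next increases were smaller and alike in size. On chromosome 2 (chr2:161000001-161500000), around Chd6, which encodes a chromatin remodeller of the CHD family, the Crick share was 55.0% in the control and 62.9% in the dKO, a difference of 7.92 points (5.47 to 10.4). The naive difference was 6.60 points (2.32 to 10.8), so this window was higher in the dKO in both states. On chromosome 12 (chr12:103000001-103500000), with Prima1, whose product anchors acetylcholinesterase in membranes, Fam181a and Asb2, a ubiquitin ligase subunit, the Crick share was 47.5% and 55.4%, a difference of 7.86 points (5.29 to 10.4). The naive difference there was 2.61 points (-1.74 to 6.94). Here the control stood between 37.2% and 40.7% from 25 kb left of the middle to 225 kb right of it and reached 59.6% at 325 kb, while the dKO was already at 57.8% at 175 kb. Farther right the order turned, with 59.8% in the control and 42.1% in the dKO at 725 kb.

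Both remaining regions were on chromosome 7. The window with the zinc finger gene Zfp619 (chr7:39500001-40000000) had a Crick share of 53.6% in the control and 61.0% in the dKO, a difference of 7.47 points (4.39 to 10.5), and its naive difference was 9.16 points (4.04 to 14.2). The window with Mrgpra3, Mrgpra2b and Mrgpra4, receptors of itch-sensing neurons in a tandem gene family (chr7:47500001-48000000), had 49.8% and 57.2%, a difference of 7.37 points (3.92 to 10.8). In naive cells this window went the other way, from 60.7% to 53.6%, a difference of -7.01 points (-12.8 to -1.17). Reads of near-identical gene copies may be placed unevenly in this cluster and in that of Zfp619, which was not tested.

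Over all windows the lowest difference was -10.4 points, in a window without a named protein-coding gene start (chr11:8000001-8500000), with 44.6% in the control and 34.2% in the dKO. Among windows with a named protein-coding gene start, the largest decrease was also on chromosome 3 (chr3:82500001-83000000), in a window with Rbm46, an RNA-binding protein of germ cells, Lrat, which esterifies retinol, and Npy2r, a neuropeptide Y receptor. Its Crick share was 49.0% of 2086 reads in the control and 39.7% of 2354 reads in the dKO, a difference of -9.32 points (-12.2 to -6.39). The naive difference was -2.66 points (-7.48 to 2.19). The window of Pirt, a regulator of sensory ion channels, Tmem238l and Shisa6, an auxiliary subunit of glutamate receptors (chr11:66500001-67000000), had 46.9% in the control and 37.7% in the dKO, a difference of -9.14 points (-11.6 to -6.65). EpiLC dCD stood at 32.5% there, naive control at 35.3% and naive dKO at 33.6%, so of these 5 tracks the EpiLC control was the one nearest 50%. In the 50 kb windows left and right of the middle the control had 59.9% and 57.5% Crick reads where the dKO had 33.3% and 39.9%.

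On chromosome 15, the window of Adamts20, a secreted metalloprotease (chr15:94000001-94500000), had 48.9% in the control and 40.4% in the dKO, a difference of -8.49 points (-11.3 to -5.71). The naive tracks stood at 36.2% and 34.4%, both lower than the EpiLC control. The window of Pdzph1 (chr17:58500001-59000000) had 54.7% in the control and 46.3% in the dKO, a difference of -8.43 points (-11.6 to -5.20). The window of Sirpb1c and Sirpb1b, signal-regulatory receptors of myeloid cells (chr3:15500001-16000000), had 43.2% of 899 reads and 35.1% of 922 reads, a difference of -8.02 points (-12.5 to -3.54). That window and the carbonic anhydrase window are 500 kb apart on chromosome 3, with opposite differences. Over the 10 named windows, 8 had the EpiLC sign in naive cells, the naive interval lay on the EpiLC side of 0 in 2 and on the other side in 1. Of the 10, 3 had turned across 50%, those of Car1, Prima1 and Pdzph1.

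**Figure D3:**
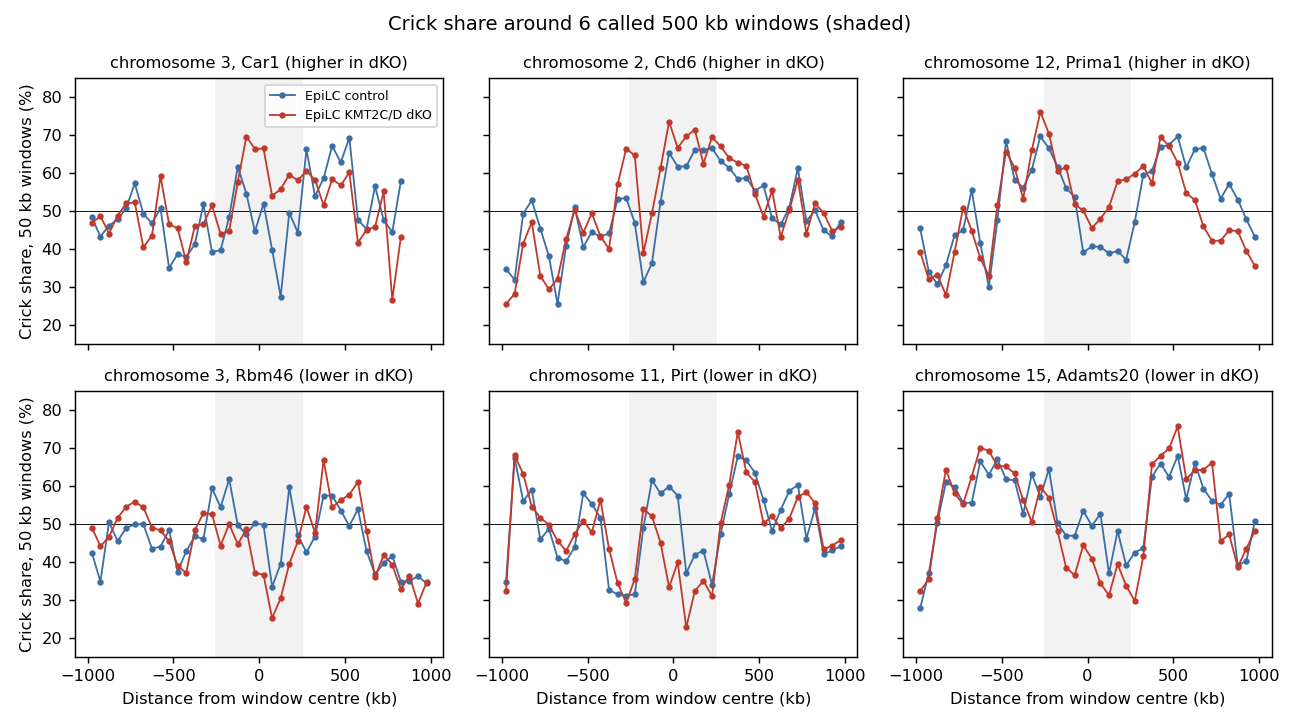
Crick share in 50 kb windows (y axis, percent) by distance from the window centre (x axis, kb) in the EpiLC control (blue) and KMT2C/D dKO (red), around the 3 most increased (top) and the 3 most decreased (bottom) of the windows with a named gene start, with the called 500 kb shaded and a line at 50%. In the Pirt panel the control stands at 59.9% and 57.5% beside the centre and the dKO at 33.3% and 39.9%.

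The Crick share followed base composition strongly at 1 kb, and more so in the dKO. T minus A content is the excess of T over A on the reference strand, as a percent of the bases of a bin. In bins with an excess of 16% to 20% T, 73.2% of the control reads (72.9% to 73.4%) and 76.2% of the dKO reads (76.0% to 76.4%) were Crick reads. In bins with as large an excess of A, 26.7% of the control reads (26.5% to 26.9%) and 23.4% of the dKO reads (23.2% to 23.6%) were. Bins without 4% excess of either base stood at 46.8% and 52.9% in the control and 46.2% and 53.4% in the dKO. Measured against neighbouring bins, the Crick share changed by 1.15 points per point of T minus A in the control and by 1.31 in the dKO, while the naive pair had 1.69 and 1.63, in the opposite order.

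**Figure D4:**
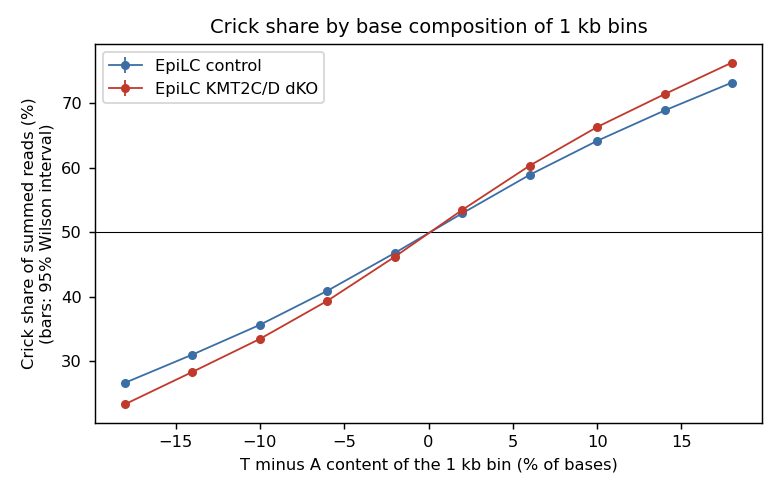
Crick share of the summed reads (y axis, percent) in classes of 1 kb bins by T minus A content (x axis, percent of bases) in the EpiLC control (blue) and KMT2C/D dKO (red), with 95% Wilson intervals that are smaller than the points. The dKO line is lower than the control on the A-rich side (23.4% against 26.7%) and higher on the T-rich side (76.2% against 73.2%).

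Sequences from the windows with a named gene start that were most increased and most decreased show stretches of bins of such composition. Each is 150 bases of the reference plus strand, 5′ to 3′, from the middle of the deepest bin with an excess of at least 12% (mm10, with the excess base in capitals). The first is from an intron of E2f5 in the carbonic anhydrase window (chr3:14585426-14585575), whose bin held 0 Watson and 7 Crick reads in the control and 5 and 6 in the dKO. The second lies between genes in the same window (chr3:14524426-14524575), with 10 Watson and 0 Crick reads in the control and 10 and 2 in the dKO. The third is from an intron of Rbm46os (chr3:82884426-82884575), with 1 Watson and 8 Crick reads in the control and 3 and 3 in the dKO. The fourth is from an intron of Rbm46 (chr3:82851426-82851575), with 7 Watson and 2 Crick reads in the control and 12 and 0 in the dKO. In this order the stretches hold 53 T and 17 A, 39 T and 59 A, 72 T and 33 A, and 20 T and 65 A. Their bins had a T minus A content of 12%, -13.9%, 15.9% and -12.4%, so a stretch can be more skewed than its bin.
Carbonic anhydrase window, T-rich: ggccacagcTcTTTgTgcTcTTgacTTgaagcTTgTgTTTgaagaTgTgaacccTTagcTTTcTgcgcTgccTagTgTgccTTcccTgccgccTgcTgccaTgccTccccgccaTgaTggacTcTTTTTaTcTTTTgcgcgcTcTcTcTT
Carbonic anhydrase window, A-rich: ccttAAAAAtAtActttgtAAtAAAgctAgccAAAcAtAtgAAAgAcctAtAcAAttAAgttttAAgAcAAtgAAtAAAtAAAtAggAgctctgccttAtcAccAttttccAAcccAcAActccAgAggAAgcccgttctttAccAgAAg
Rbm46 window, T-rich: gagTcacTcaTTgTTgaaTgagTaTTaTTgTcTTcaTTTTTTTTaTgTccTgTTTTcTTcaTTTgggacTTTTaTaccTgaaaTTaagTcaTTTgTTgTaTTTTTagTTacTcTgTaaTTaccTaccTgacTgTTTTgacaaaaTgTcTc
Rbm46 window, A-rich: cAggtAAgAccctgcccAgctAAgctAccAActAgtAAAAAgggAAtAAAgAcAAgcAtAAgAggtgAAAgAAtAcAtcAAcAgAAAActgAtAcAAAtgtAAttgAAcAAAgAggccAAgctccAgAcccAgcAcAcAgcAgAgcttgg
In the carbonic anhydrase window, the 79 T-rich bins had 71.0% Crick reads in the control and 78.0% in the dKO, a difference of 7.01 points (-0.885 to 14.9) on 221 and 246 reads. The 31 A-rich bins had 20.6% and 25.6%, a difference of 5.00 points (-4.39 to 14.3) on 155 and 156 reads. In the Rbm46 window, the 15 T-rich bins had 72.1% and 64.9%, a difference of -7.22 points (-23.4 to 9.34) on 61 and 57 reads. The 29 A-rich bins had 31.4% and 23.6%, a difference of -7.82 points (-19.1 to 3.26) on 105 and 144 reads. All 4 intervals held 0, so a difference within a class of bins was not detectable at this depth. With the part that follows T minus A removed, the differences of the 10 named windows kept their sign. The carbonic anhydrase window had 10.1 points and the Rbm46 window -8.04 points. The Sirpb1c window, whose T minus A content of -5.31% was the farthest from 0 of the 10, went from -8.02 to -5.96 points. With the same part removed, 90 of the 4747 windows were called in place of 134. The amplitude ratio was then 1.06 at 50 kb and 1.102 at 500 kb.

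Steps in the Crick share between adjacent 50 kb windows were measured at boundaries chosen in the summed naive control and naive dKO reads, so that the EpiLC reads had no part in the choice. Of 46670 boundaries, 4008 had a rising step of at least 15 points, as at initiation sites, and 3128 a falling one, as where forks meet. The mean rising step was 11.6 points in the EpiLC control (counting SE 0.0691) and 12.7 in the EpiLC dKO (counting SE 0.0646), a difference of 1.023 points (0.837 to 1.21). The mean falling step was -8.49 points (counting SE 0.0839) and -9.56 points (counting SE 0.0786), a difference of -1.07 points (-1.29 to -0.844). Rising steps were larger in the dKO at 2237 boundaries, or 55.8%, and falling ones at 1814, or 58.0%. The ratio of the mean steps was 1.09 for rising and 1.13 for falling ones, beside the amplitude ratio of 1.095 at 50 kb. With the dKO scaled to the amplitude of the control, the rising step differed by -0.078 points (counting SE 0.0909) and the falling one by -0.238 points (counting SE 0.110). With the T minus A part removed, they differed by 0.354 and -0.395 points.

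Read share differed in few windows. At 500 kb, 2 windows were at least 1.2-fold higher in the dKO (0.0421% of windows) and 13 at least 1.2-fold lower (0.274%). With the windows shifted by a part of their length 0 were higher and 9 lower, and with the GC trend taken off 1 was higher and 8 were lower. At 50 kb, 11 were at least 1.5-fold higher (0.0234%) and 16 lower (0.034%), and with the GC trend taken off 14 were higher and 11 lower. At 5 Mb, 0 were at least 1.1-fold higher (0%) and 3 were lower (0.606%), on chromosome 6 (chr6:75000001-80000000, ratio 0.886), chromosome 3 (chr3:45000001-50000000, ratio 0.900) and chromosome 4 (chr4:65000001-70000000, ratio 0.901). With the GC trend taken off 1 window was called, and as a share of the reads of their own chromosome 2 were, and chromosome 3 as a whole stood at 0.956. All 3 were below 1 in naive cells, at 0.937, 0.962 and 0.952. Chromosome 3 as a whole stood at 0.949 there, lower than its window, so the naive value of that window shows no local deficit. In EpiLC dCD, measured against the same control reads, the 3 windows had a mean log2 ratio of 0.0249, against -0.159 in the EpiLC dKO. The 13 lower windows of 500 kb had a mean log2 ratio of -0.31 in EpiLCs and -0.04 in naive cells (counting SE 0.0240), with 9 of 13 below 0.

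The larger of the 2 increases held Asap2, a GTPase-activating protein for ARF GTPases (chr12:20500001-21000000), with 639 control and 954 dKO reads, a ratio of 1.31 (1.19 to 1.45). The naive ratio was 0.931 (0.783 to 1.11). The other held 14 gene starts, among them Hnrnpul1, an RNA-binding protein, Ccdc97 and Axl, a receptor tyrosine kinase (chr7:25500001-26000000), with 2512 and 3437 reads, a ratio of 1.203 (1.14 to 1.27). Its naive ratio was 1.22 (1.11 to 1.34), so it was as high in naive cells, and EpiLC dCD stood at 1.01 (0.962 to 1.07). The excess lay in the left and middle of that window. The 50 kb centred 75 kb left of the middle had 312 control and 501 dKO reads, a ratio of 1.41, and the 50 kb centred 225 kb right of it had 135 and 153, a ratio of 0.996.

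The strongest decrease was at Pappa, a metalloprotease that cleaves IGF-binding proteins (chr4:65000001-65500000), with 2546 control and 2216 dKO reads, a ratio of 0.765 (0.723 to 0.810). Its naive ratio was 0.961 (0.865 to 1.07). The window of Reg3b, Reg3d and Reg3a, antimicrobial lectins of the gut (chr6:78000001-78500000), had 2031 and 1776 reads, a ratio of 0.769 (0.721 to 0.820), and a naive ratio of 0.783 (0.699 to 0.877). The Mrgpra window of chromosome 7 had 1682 and 1530 reads, a ratio of 0.800 (0.746 to 0.858), with 1.005 in naive cells (0.891 to 1.13) and 0.589 in EpiLC dCD (0.546 to 0.635). The windows of Cntnap5a, a neuronal cell adhesion protein (chr1:115500001-116000000), and of Lrriq1, Slc6a15, an amino acid transporter, and Alx1, a homeobox factor (chr10:103000001-103500000), had ratios of 0.811 (0.759 to 0.867) and 0.818 (0.772 to 0.868), with naive ratios of 1.06 and 0.951. Over these 7 windows, 4 had the EpiLC direction in naive cells, with an interval without 1 in 2, those of Axl and Reg3b.

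The step of the Crick share inside the lower windows differed in both directions. It was read at the boundary with the largest rise in the naive control inside each window, a choice made after the 50 kb profiles had been seen, as was that of the windows named for it. At Pappa the Crick share went from 38.0% to 64.7% across the centre of the window in the control and from 38.2% to 52.1% in the dKO, rises of 26.8 and 13.9 points (difference -12.9, counting SE 5.88). At Reg3b it went from 43.1% to 69.0% in the control and from 48.6% to 55.7% in the dKO (difference -18.8, counting SE 6.89). In the window of Cldn17 and Cldn8, tight junction proteins (chr16:88500001-89000000, read ratio 0.831), the rises were 21.4 and 6.96 points, and in a window without a named gene start (chr2:98500001-99000000, read ratio 0.824) they were 32.0 and 13.8 points. EpiLC dCD had rises of 11.8, 14.8, 4.79 and 19.02 points at these 4 boundaries, measured beside the same control. Over all 13 lower windows the mean rise was 11.0 points in the control (counting SE 1.46) and 8.15 in the dKO (counting SE 1.53), and it was smaller in the dKO in 8 of 13. Over 4742 windows treated alike it was 7.89 and 8.42 points, and smaller in the dKO in 47.7%. The 4 windows above have the largest decreases of the 13. The rise was larger in the dKO in the other 5, by 6.59 to 18.2 points, most in the window of Sirpb1a (chr3:15000001-15500000, -8.90 and 9.30 points, difference 18.2, counting SE 10.1).

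The read share ratio followed GC content, in opposite directions in both cell states. In EpiLCs the median ratio of 500 kb windows was 0.983 in the decile with the lowest GC content (median 36.7% GC) and 1.03 in the decile with the highest (median 48.7% GC). In naive cells the same deciles had medians of 1.016 and 0.990. Across windows the log2 ratio correlated with GC content with 0.281 in EpiLCs and -0.169 in naive cells, as a description. The lowest GC quartile held 7 of the 13 lower windows and 0 higher ones, and the highest GC quartile held both higher windows. GC content moves with the read share here, and its part in the calls was not tested beyond taking the trend off, which left 9 of the 15 called windows.

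**Figure D5:**
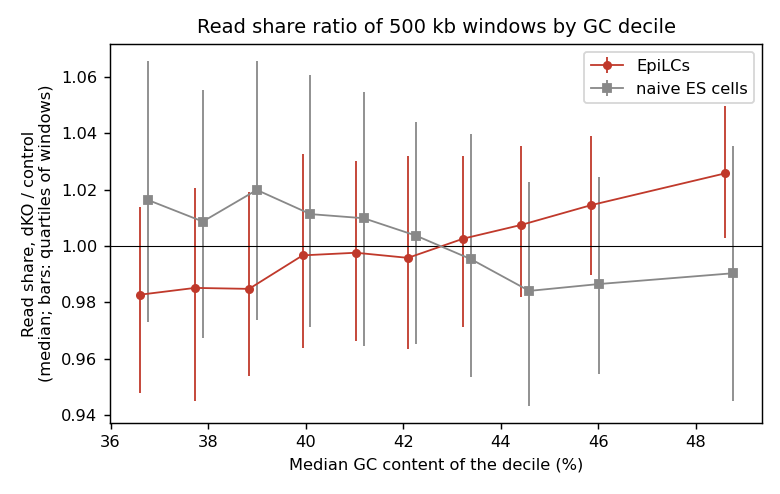
Median read share ratio of 500 kb windows, dKO over control (y axis, linear, not starting at 0), by the median GC content of 10 classes of windows (x axis, percent), for EpiLCs in red and naive ES cells in grey, with bars from the lower to the upper quartile of the windows. EpiLC medians go from 0.983 to 1.03 and naive medians from 1.016 to 0.990.

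No member of the lists for the KMT2C/D complex, naive pluripotency, the formative state and origin licensing lay in a called window. Each gene was read in the 500 kb window that holds its start. Of the 9 autosomal members of the KMT2C/D complex, 0 were called for Crick share and 0 for read share, beside 2.82% of windows called for Crick share in either direction. At that share less than 1 call is due in any of these 4 lists, so a count of 0 does not set them apart. Kmt2c lay in a window with a Crick share of 43.5% in the control and 43.6% in the dKO, a difference of 0.10 points (-2.51 to 2.71), and Kmt2d in one with 45.1% and 43.3%, a difference of -1.79 points (-4.10 to 0.51). The largest difference of the list was 1.87 points (-0.54 to 4.28), at Wdr5, the shared WD40 subunit of these complexes. Kdm6a, the H3K27 demethylase, is on the X chromosome and was not read here.

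Of 13 genes of naive pluripotency in 12 windows, 0 were called for either measure. The window of Zfp42 (Rex1), a marker of naive cells, had 1728 control and 2195 dKO reads, a ratio of 1.12 (1.05 to 1.19), and a Crick share difference of -2.74 points (-5.87 to 0.40). Klf2 and Klf4, Krüppel-like factors of the naive network, had read ratios of 1.096 (1.04 to 1.16) and 1.09 (1.04 to 1.16). Sox2 and Pou5f1, the core pluripotency factors, had 1.05 (1.002 to 1.11) and 1.03 (0.986 to 1.09). The lowest ratios were those of Tfcp2l1 with 0.984 (0.935 to 1.035), Prdm14 with 0.989 (0.940 to 1.04) and Tbx3 with 0.997 (0.947 to 1.05), further factors of the naive network. The median read ratio of the list was 1.04, beside 1.0005 over all windows. Among all 4747 windows of 500 kb, the counting interval of the read ratio lay above 1 in 559 and below 1 in 580. Such an interval therefore does not set a gene apart. The part of GC content in the ratios of this list was not tested.

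Of 12 genes of the formative state in 11 windows, 0 were called. Fgf5, the growth factor that marks formative cells, shared its window with Prdm8, and Otx2, a homeobox factor that drives the exit from the naive state, lay on chromosome 14. Their windows had read ratios of 0.938 (0.890 to 0.988) and 0.944 (0.899 to 0.990). Dnmt3b, a de novo DNA methyltransferase, had a ratio of 0.964 (0.918 to 1.01) and a Crick share of 59.2% in the control and 61.3% in the dKO. The highest ratios were those of Pou3f1 (Oct6), a POU factor, with 1.05 (1.001 to 1.101) and Dnmt3a with 1.007 (0.959 to 1.06). The median read ratio of the list was 0.970, beside 1.0005 over all windows, and the part of GC content was not tested here either. The largest Crick share difference of the list was -2.47 points (-4.83 to -0.10), at Zic2, a zinc finger factor.

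Of 29 genes of origin licensing and firing, 0 were called. The largest differences were at Orc6, a subunit of the origin recognition complex, with 3.71 points (0.97 to 6.44), at Mcm5, a subunit of the replicative helicase, with 3.67 points (1.017 to 6.32), and at Orc4, with -3.56 points (-6.39 to -0.72). Read ratios went from 0.932 (Mcm6) to 1.09 (Mcm3), both helicase subunits. The median absolute Crick share difference was 1.07 points, beside 1.45 over all windows.

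The list of long genes had called windows and is much longer than the others. Of 218 autosomal protein-coding genes of at least 500 kb, in 216 windows, 6 were higher in Crick share and 4 lower, and 0 were higher in read share and 2 lower. Over all windows, 1.33% were higher and 1.5% lower in Crick share, and 0.274% lower in read share. With the T minus A part removed, 5 list members in place of 10 were called for Crick share. The median absolute difference of the list was 1.51 points, beside 1.45. The largest decreases were at Ptprt, a receptor tyrosine phosphatase, with 37.3% in the control and 31.1% in the dKO (-6.23 points, -8.71 to -3.73), at Slc7a11, the cystine transporter, with 49.0% and 42.9% (-6.11 points, -9.04 to -3.17), and at Grm8, a glutamate receptor, with 39.4% and 33.9% (-5.48 points, -7.97 to -2.98). The largest increases were at Inpp4b, a lipid phosphatase, with 63.2% and 68.8% (5.54 points, 2.47 to 8.60), at Agbl1, with 62.7% and 68.0% (5.35 points, 2.44 to 8.25), and at Csmd2, with 51.1% and 56.3% (5.16 points, 2.45 to 7.87). Of these genes, only Ptprt was also called in the 50 kb window of its start (-15.4 points, -23.4 to -7.23). At that scale Slc7a11 had -0.413 points (-8.64 to 7.75). Csmd2 had -2.19 points (-11.2 to 6.90), opposite in sign to its 500 kb window. Grm8, Inpp4b and Agbl1 kept their sign, with intervals that held 0. Both genes lower in read share were neuronal adhesion genes, Cntnap5a with a ratio of 0.811 and Ctnna2, which encodes alpha-N-catenin, with 0.820 (0.770 to 0.872). The Ctnna2 window adjoins that of Reg3b, so both belong to one stretch of chromosome 6.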

How the data were processed

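Per the labels and the study's methods, EdU-labelled Okazaki fragments were sequenced in paired-end mode and aligned to mm10 with Bowtie2. The submitters' processing notes also name FastQC, Trim Galore and Picard, and list hg19 beside mm10. Their versions, and whether duplicate reads were removed, are not given in the sources used here. The deposited signal tracks hold Watson and Crick reads per base in 1 kb bins, unscaled, and the authors summed both replicates of a condition. All values were whole multiples of 0.001, the value of 1 read.

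The windows, thresholds and gene lists were chosen with earlier results of these data known. Bins over 10 times the median in either EpiLC library (93 on autosomes) were left out, and windows with fewer than 50, 500 or 5000 reads at 50 kb, 500 kb and 5 Mb were not compared. A window was called when its difference reached the stated minimum and its 95% interval left out the value of no difference. These intervals were Newcombe for shares and exact Clopper-Pearson for read ratios. Single shares have Wilson intervals. PCR copies were not marked by molecular identifiers, so the intervals take copies for molecules and cover counting error only. Named regions are the 5 largest differences in each direction among called 500 kb windows with a protein-coding gene start (GENCODE M21; unnamed gene models left out, touching windows merged), with up to 3 genes nearest the centre. List members were also named, Kmt2c and Kmt2d first, and long genes by the 3 largest differences each way. Sequences and base composition were read from GRCm38. The procedures were tested on simulated data. Python 3.11.15, numpy 2.4.6, pandas 2.3.3, scipy 1.17.1 and matplotlib 3.10.9 were used.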

Additional observations from a re-analysis of the deposited data

Results flagged for a closer look

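The results here had opposite directions in EpiLCs and naive cells in the dKO and control comparison. The difference between the states was not tested, since each condition is 1 pooled track. The median read share ratio of the highest GC decile over that of the lowest was 1.04 in EpiLCs and 0.974 in naive cells. The Crick share of the Mrgpra window (chr7:47500001-48000000) was 7.37 points higher in the dKO in EpiLCs and differed by -7.01 points in naive cells, with both intervals on their own side of 0. The slope of the Crick share on T minus A content was 0.161 higher in the dKO in EpiLCs and differed by -0.0587 in naive cells. The Asap2, Cntnap5a and Mrgpra windows and the X chromosome in read share, and the Sirpb1c window in Crick share, also had naive values on the other side of no difference, but with naive intervals that held it. Of the 19 autosomes, 14 were on the same side of 1 in both states.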

How the results depend on the processing

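No paired analysis was possible because the replicates of each condition were summed by the authors, and for the same reason no replicate was left out. Of the alternatives to values that answer a comparison, 74 left it within its tolerance, 37 moved it and 1 reversed it. Among the named windows these were 117 and 4, with none reversed. The tolerance was 1.5 times for a count of windows or genes, and the 95% counting interval of the reported value otherwise, so a count within it can still differ, as 90 does from 134 with T minus A removed.

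The 325 windows called for Crick share at 50 kb became 2728 with a minimum of 10 points and 26 with 20. The 134 at 500 kb became 69 with the dKO scaled to the control amplitude (61 of them shared), 767 with a minimum of 3 points and 7 with 8. The 0 at 5 Mb became 1 with reads thinned to equal totals, 1 with chromosome X and 40 with a minimum of 1 point. The 27 windows called for read share at 50 kb became 13 with the read minimum doubled, 555 with Watson reads alone, 610 with Crick reads alone, 48 with chromosome X, 717 at 1.3-fold and 0 at 2-fold. The 15 at 500 kb became 9 with shifted windows (0 higher, 9 lower), 9 with the GC trend taken off (1 higher, 8 lower), 61 with Watson reads alone (12 higher, 49 lower), 69 with Crick reads alone (22 higher, 47 lower), 311 at 1.1-fold and 0 at 1.5-fold. The single-strand settings used fewer reads. The 3 at 5 Mb became 1 with the GC trend taken off, 41 at 1.05-fold and 0 at 1.2-fold.

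The chromosome 3 ratio was 0.951 with the median autosome set to 1 and 0.968 with the GC trend taken off. With the T minus A part removed, the amplitude ratio at 50 kb was 1.06, the slopes at 50 kb and 500 kb were 1.023 and 1.07, and 5 in place of 10 list members were called for Crick share. The rising step difference was 0.819 for steps of at least 10 points, 1.37 for 25, 0.740 for boundaries chosen in naive control, 0.354 with T minus A taken off and -0.078 scaled to the control amplitude. The falling one was -1.32 for 25 points, -0.679 for boundaries chosen in naive control, -0.395 with T minus A taken off and -0.238 scaled. The log2 read ratio of the Pappa window was -0.30 on Watson and -0.48 on Crick reads, and that of the Mrgpra window -0.55 and -0.12. The causes of these changes were not tested. Depth limits single 50 kb windows most, with a median half-width of 8.50 points in the interval of the Crick share difference.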

Other observations

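The X chromosome was left out of the windows because the methods give the sex of the control and dKO line as undetermined and that of the dCD line as male. Relative to autosomal reads, its reads in the EpiLC dKO were 0.967 times those of the EpiLC control (0.962 to 0.972), from 341283 and 310249 reads. The ratio was 1.01 in naive cells (0.998 to 1.015), and 0.994 in EpiLC dCD (0.989 to 0.999) against the same control reads.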
